A study of Homo sapiens with 12 samples.

Results

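The libraries described here came from A549 cells, a human line from a lung adenocarcinoma that normally grows on a surface, after 48 hours in suspension with or without expression of GFI1. All A549 cells, control and GFI1-expressing, were grown in RPMI1640 with 10% FBS, and the floating groups were held on plates to which cells cannot attach. Of the 12 libraries of the series, 6 belong to this comparison: 3 of floating control cells and 3 of floating GFI1-expressing cells, chosen by their labels alone. The other 6 are the same cells left attached, and they were used where the GFI1 effect of the 2 states was compared. GFI1 was introduced with a lentivirus in which the phosphoglycerate kinase promoter drives GFI1 together with GFP, and the transduced cells were sorted by GFP as a pool. The sources used here name no vector for the RNA-Seq controls, so each difference between GFI1 and control libraries includes any effect of transduction and sorting.

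GFI1 is a zinc-finger protein of blood cell development that represses genes by recruiting the histone demethylase KDM1A, corepressors of the CoREST family and histone deacetylases. Epithelial cells normally depend on integrin contact with the matrix for survival signals, and cells that lose it die by anoikis, a form of apoptosis in which the BH3-only proteins BCL2L11 (BIM) and BMF take part. The study asked how GFI1 changes cells that keep or lose anchorage, and the comparison of floating GFI1 with floating control cells addresses the cells that lost it.

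The floating libraries held between 17132435 and 19146265 counts. GFI1 itself, which checks the labels, was at 0.711, 0.482 and 0.68 CPM in the control libraries and 545, 706 and 430.2 CPM in the GFI1 libraries. The 3 GFI1 libraries thus all carried the introduced gene, and its level was highest in replicate 2 and lowest in replicate 3. Of the markers that define A549 as an epithelial line, KRT8 and KRT18, keratins of simple epithelia, were at 3827, 3691 and 3588 CPM and 1739, 1827 and 1621 CPM in the control libraries and CDH1 at 89.4, 82.8 and 84 CPM, while EPCAM, an epithelial adhesion molecule, was low at 2.43, 2.17 and 1.3 CPM. With GFI1, the log2 fold changes were -1.26 for KRT8, -4.42 for CDH1 and -1.69 for EPCAM. KRT18 went from 28620 to 30342 counts in a control library to 8281 to 9827 in a GFI1 library. FOXA1 and MUC1 went from at most 225 and 485 counts to at least 392 and 821. Of 18 epithelial identity genes tested, 6 were higher and 8 lower, beside 29.3% and 31.1% of all genes. Their summed level was 8281 to 8808 CPM in control and 3845 to 4189 CPM in GFI1 libraries. The surfactant genes SFTPB and SFTPC, markers of alveolar type II cells, had at most 6 and 14 counts in a floating library. Of 22 blood cell markers, 16 had at most 10 counts in each of the 6 libraries, as did 7 of 13 fibroblast and 8 of 12 endothelial markers, and PTPRC, the marker of nucleated blood cells, had at most 1 count. Summed over the 6 blood markers tested, the level was between 17.1 and 21.1 CPM in control and between 10.99 and 13.5 CPM in GFI1 libraries. CDH5, the cadherin of endothelial junctions, had 3 counts or fewer in each control library and was at least 22.9-fold higher in GFI1 libraries, at 4.08, 3.58 and 4.43 CPM. VWF, the clotting factor of endothelium, went from 0 to 4 counts in a control library to 11 to 15 in a GFI1 library, while KDR and TEK, receptors of endothelium, had 3 counts or fewer in all 6. Of the 4 endothelial markers tested, 2 were higher and 1 lower, and their summed level was 2.08 to 2.95 CPM in control and 5.29 to 6.27 CPM in GFI1 libraries. Of the 6 fibroblast markers tested, 3 were higher and 3 lower (3 called in all with at least 10 counts in every library), with a summed level of 28.2 to 31.6 CPM in control and 20.6 to 22.4 CPM in GFI1 libraries, and PDGFRB, a receptor of mural cells and fibroblasts, went from 3 to 5 counts to 35 to 66. The part of these markers in the results was not tested. CPM are counts relative to the library total, scaled by trimmed mean of M values. A group whose libraries all had 3 counts or fewer was at the floor, and folds against it are lower bounds.

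To see how far GFI1 changed the transcriptome of floating cells, 17829 genes were tested, and a gene is called higher or lower, or said to rise or fall, only where it passed the threshold. At an adjusted p of 0.05 or less by edgeR's quasi-likelihood test, 5223 genes were higher and 5547 lower with GFI1, which is 60.4% of all genes tested. Calls with a change of 2-fold or more numbered 1505 higher and 1573 lower genes (17.3% of those tested), and 136 higher and 228 lower genes changed by 10-fold or more. The CPM of the 2 groups did not overlap for 11477 genes, 64.4% of those tested. With libraries scaled by their size only, 6840 genes were higher and 4308 lower (61.4% of calls higher, against 48.5%), and the median log2 fold change of all genes was 0.14 in place of 0.011. The calls were not shared equally among gene types. Of 13761 protein-coding genes, 4291 were higher and 4959 lower, whereas of 4068 genes of other types 932 were higher and 588 lower. Among antisense genes 305 of 1247 were higher and 149 lower, and among lincRNAs 228 of 881 were higher and 130 lower, while processed pseudogenes showed the opposite split, with 59 of 569 higher and 128 lower. Whether the counting used strand is not given in the sources used here, so an antisense gene cannot be told apart from its partner. Over the autosomes and X, the median log2 fold change ran from -0.11 on chromosome 4 to 0.12 on chromosome 19, against 0.011 over all genes. The 34 tested genes of the mitochondrial genome had a median of -0.18.

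**Figure D1:**
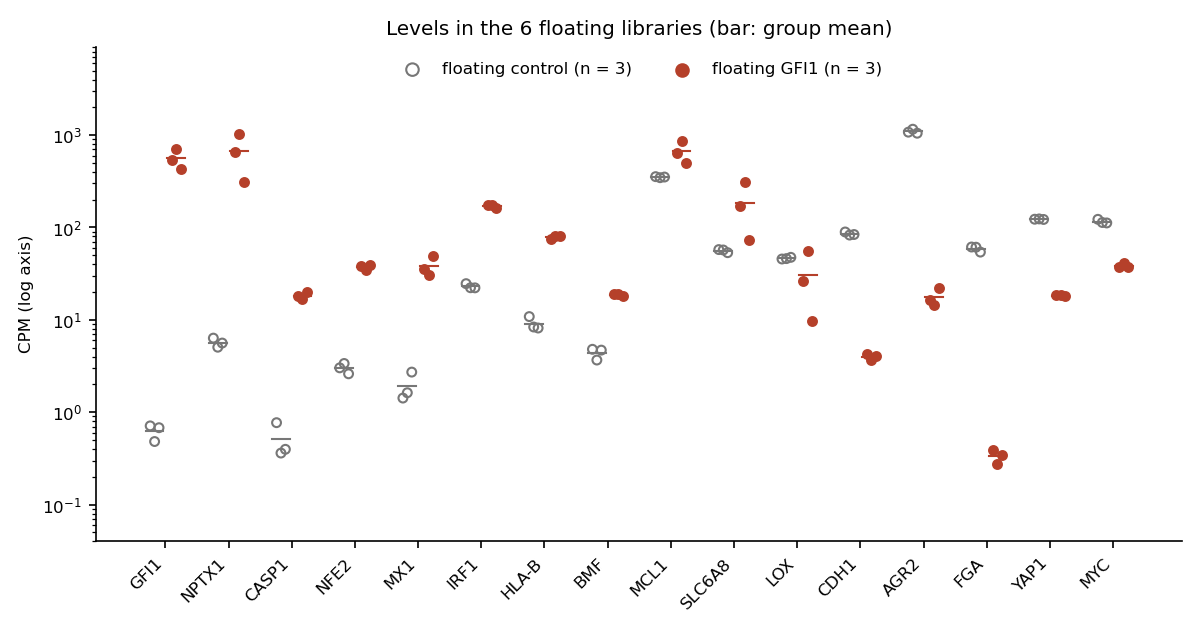
Level of 16 genes in each of the 6 floating libraries, in CPM on a log axis, with control libraries as open circles and GFI1 libraries as filled circles and a bar at each group's mean. The 3 libraries of a group lie close together for most genes, with NPTX1, LOX and SLC6A8 spread widely over the GFI1 libraries, and values under 0.05 CPM are drawn at 0.05.

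Among protein-coding genes whose mean log2 CPM reached 1, the 11 largest rises after GFI1 itself were in genes of varied function. In order, the log2 fold changes were 6.87 for NPTX1, 5.75 for ITGA11, 5.72 for MUC19, 5.71 for APOL3, 5.64 for CPA4, 5.57 for LGALS9C, 5.44 for KLRC2, 5.27 for NOX5, 5.21 for UBA7, 5.16 for CASP1 and 5.12 for ADAMTS14. ITGA11, APOL3, UBA7 and the mucin and galectin genes are described with their families. NPTX1, a neuronal pentraxin, was at 6.34, 5.06 and 5.61 CPM in the control libraries and 661, 1027 and 309 CPM in the GFI1 libraries, so that every GFI1 library was above every control library, but the GFI1 libraries differed from each other by more than 3-fold. KLRC2, a receptor of natural killer cells whose reads may be split with its close copies, was at 0.77, 0.602 and 0.963 CPM in the control libraries and 34.9, 34 and 33.8 CPM in the GFI1 libraries. NOX5, a superoxide-producing NADPH oxidase, was at 0.415, 0.662 and 0.397 CPM in the control libraries and 19.2, 22 and 16.1 CPM in the GFI1 libraries. CASP1, the caspase that matures interleukin-1 beta, was at 0.77, 0.361 and 0.397 CPM in the control libraries and 18.1, 17 and 19.9 CPM in the GFI1 libraries. For all 3 genes the groups did not overlap, and the log2 fold changes were 5.44 ± 0.13, 5.27 ± 0.19 and 5.16 ± 0.20 (SE). Their control values were low and not tightly grouped, running from 0.361 to 0.77 CPM for CASP1. CPA4 encodes a carboxypeptidase and ADAMTS14 a procollagen protease.

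Several of the largest falls were in genes of secreted or membrane proteins. CST1, a secreted cysteine protease inhibitor, was at 23.2, 21.9 and 22.2 CPM in the control libraries and at 2 counts or fewer in each GFI1 library, so that it was at least 140-fold lower. AGR2, an endoplasmic reticulum protein of mucus-secreting epithelia, fell 61.2-fold, from 1077, 1159 and 1049 CPM to 16.6, 14.4 and 22.4 CPM. IGFBP1, a carrier of insulin-like growth factors, was at 69.4, 66.8 and 69.1 CPM in the control libraries and 1.27, 2.1 and 1.04 CPM in the GFI1 libraries, and AP1M2, the epithelial subunit of the clathrin adaptor AP-1, at 19.5, 20.6 and 20.1 CPM in the control libraries and 0.552, 0.441 and 0.348 CPM in the GFI1 libraries. Both were far below control in every GFI1 library. SLFN5, a member of the interferon-regulated Schlafen family, fell from 88.4, 87.7 and 91.3 CPM to 2.1, 2.1 and 2.64 CPM (log2 fold change -5.28 ± 0.084). Among genes of other types, MEG3, a long noncoding RNA, rose from 1.13, 1.32 and 1.25 CPM to 15.9, 18.1 and 11.4 CPM.

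Genes that the deposited table marks as transcription factors were called higher more often than lower. Of 1133 tested, 485 were higher and 267 lower with GFI1, beside 29.3% higher and 31.1% lower over all genes, with a median log2 fold change of 0.15, and the C2H2 zinc-finger family, to which GFI1 belongs, had 213 higher and 67 lower of 475. The homeobox family, with 28 higher and 37 lower of 100, was near the shares over all genes. Among single factors, NFE2, a blood cell factor of the CNC family, was at 3.02, 3.37 and 2.61 CPM in the control libraries and 38.1, 35 and 38.9 CPM in the GFI1 libraries, and OSR1 and ALX4, developmental zinc-finger and homeobox factors, had log2 fold changes of 3.16 ± 0.084 and 3.10 ± 0.083. The largest falls among factors exceeded these rises. SOX21 was at 23.6, 25.1 and 27.5 CPM in the control libraries and 0.827, 0.441 and 0.796 CPM in the GFI1 libraries, EHF, an ETS factor of epithelia, at 72.1, 78.7 and 78.4 CPM in the control libraries and 3.92, 3.58 and 6.42 CPM in the GFI1 libraries, and TP63, the p53 relative of basal epithelium, at 29.9, 28.1 and 26.7 CPM in the control libraries and 1.82, 1.43 and 2.39 CPM in the GFI1 libraries. FOXQ1 was 12.9-fold and ETV1 25.3-fold lower. SOX21-AS1, the antisense neighbour of SOX21, was lower too (log2 fold change -4.95 ± 0.16).

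The partners through which GFI1 represses changed by less than 2-fold each. Of 15 tested, 8 were higher and 4 lower. KDM1A was at 94.9, 99.8 and 91.7 CPM in the control libraries and 87.3, 85.1 and 83.1 CPM in the GFI1 libraries, and HDAC1 and HDAC2 had log2 fold changes of -0.22 ± 0.05 and -0.15 ± 0.043; with libraries scaled by size only, these 3 were not past the threshold. PRMT1, a methyltransferase that GFI1 binds, fell by 0.80 log2 units, and RCOR2, a CoREST paralog, was 1.97-fold higher. Of 18 genes known as GFI1 targets in blood cells, 9 were lower and 4 higher, beside 31.1% lower and 29.3% higher over all genes tested. The inhibitors of differentiation were among the lower ones. ID3 was at 298, 292 and 291 CPM in the control libraries and 44.1, 43.2 and 50.5 CPM in the GFI1 libraries, and ID2 at 58.7, 63.6 and 52 CPM in the control libraries and 11.1, 12.6 and 11.2 CPM in the GFI1 libraries, and for neither gene did a GFI1 library reach the control libraries. ETS1, a founding member of the ETS factors, was 3.42-fold lower. EGR1, also a described target, was higher instead, at 11.9, 11.9 and 7.59 CPM in the control libraries and 39, 43.1 and 29.2 CPM in the GFI1 libraries. CDKN1A, the p21 cell cycle inhibitor, was at 340.2, 333 and 332 CPM in the control libraries and 316, 363 and 321 CPM in the GFI1 libraries and its groups overlapped.

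The GFI1 core motif (AAATC and GC with any 3 bases between) was searched for on both strands in the 250 bases before the start of each gene, and 273 of the 12057 tested genes with a RefSeq promoter in GRCh38.p14 held it (2.26%). Promoters were matched for 69.2% of the genes lower and 58% of the genes higher by 2-fold or more, under the 80% set for such a check, so a comparison of the motif's share between genes that fell and genes that rose is void. Of all promoters, 8 held both this motif and the interferon response element described later. The 3 protein-coding genes of lowest log2 fold change that hold it, at a mean log2 CPM of at least 1, are shown because they pair the letters with a measured fall. They are given with 25 bases on each side, as far as the 250 bases reach, and with the match in capitals. IGFBP6 lies on the plus strand (chr12:53097436-53097495), MAP2K6 on the plus strand (chr17:69414580-69414639) and ID3 on the minus strand (chr1:23559700-23559751), and each sequence is read along its gene.
IGFBP6: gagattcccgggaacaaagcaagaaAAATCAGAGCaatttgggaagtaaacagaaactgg
MAP2K6: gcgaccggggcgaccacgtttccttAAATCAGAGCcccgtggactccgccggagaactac
ID3: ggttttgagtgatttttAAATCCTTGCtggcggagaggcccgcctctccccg
IGFBP6, a binding protein of insulin-like growth factor II, was at 73.3, 64.2 and 71.9 CPM in the control libraries and 5.57, 6.01 and 6.52 CPM in the GFI1 libraries, and MAP2K6, a kinase that activates p38, at 71.4, 73.3 and 71.3 CPM in the control libraries and 8.05, 7.72 and 7.71 CPM in the GFI1 libraries. A match says only that these letters stand in the window, and binding of GFI1 was not measured in these libraries.

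Cell-cell contact genes were mostly lower in floating GFI1 cells. Of 38 junction genes tested, 23 were lower and 7 higher, beside 31.1% and 29.3% of all genes (without GFI1 replicate 3, 21 and 7), with a median log2 fold change of -0.41 (-0.30 without that library). CDH1, the E-cadherin of adherens junctions, was at 89.4, 82.8 and 84 CPM in the control libraries and 4.25, 3.64 and 4.08 CPM in the GFI1 libraries, a fall of 21.4-fold that every GFI1 library showed. PERP, a desmosomal protein and p53 target, was at 468, 471 and 465 CPM in the control libraries and 127, 129.7 and 134 CPM in the GFI1 libraries, and the desmosomal cadherins DSC2 and DSC3 had log2 fold changes of -2.81 and -1.97. Other junction genes were higher. JUP, plakoglobin, was at 266, 244 and 246 CPM in the control libraries and 489, 471 and 517 CPM in the GFI1 libraries, CTNNB1, beta-catenin, rose by 0.57 log2 units, and F11R, a tight junction adhesion molecule, was 3.53-fold higher, while TJP1, which encodes ZO-1, had 232, 233 and 219 CPM in control and 236, 242 and 243 CPM in GFI1 libraries and was not past the threshold.

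With E-cadherin lower, vimentin and N-cadherin were lower too. VIM, the mesenchymal intermediate filament, was at 449, 442 and 426 CPM in the control libraries and 91.2, 128 and 74.3 CPM in the GFI1 libraries, and CDH2, N-cadherin, chosen after its value was seen, at 19.5, 20.5 and 21.9 CPM in the control libraries and 5.57, 5.79 and 6.37 CPM in the GFI1 libraries. SNAI1, a repressor of E-cadherin, was higher at 2.31, 2.05 and 1.76 CPM in the control libraries and 10.9, 12.2 and 13.5 CPM in the GFI1 libraries, ZEB1 had a log2 fold change of 0.75 ± 0.06, and TWIST2 fell by 1.86 log2 units. SNAI2 (Slug), a relative of SNAI1, was lower instead, with a log2 fold change of -2.44, so these regulators went both ways. Of 22 regulators of the epithelial-mesenchymal transition, 7 were higher and 11 lower, beside 29.3% higher and 31.1% lower over all genes. TGFB1 rose from 186, 180.5 and 180 CPM to 494, 578 and 444 CPM, whereas TGFB2 fell from 33.2, 38.8 and 34.1 CPM to 6.62, 6.89 and 6.86 CPM.

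Adhesion receptors changed in both directions. Of 24 integrins, 10 were higher and 10 lower, beside 29.3% higher and 31.1% lower over all genes. With at least 10 counts required in every library, 13 integrins were called in either direction. ITGA11, an alpha subunit that binds collagen, was at 1.3, 2.47 and 1.7 CPM in the control libraries and 97.9, 98.6 and 98.9 CPM in the GFI1 libraries, and ITGA10, another collagen-binding subunit, at 15.6, 14.7 and 14.8 CPM in the control libraries and 136, 133 and 126 CPM in the GFI1 libraries. ITGB2, the beta subunit of leukocyte integrins, was at 27.8, 25.2 and 23.3 CPM in the control libraries and 76.8, 73.7 and 72.3 CPM in the GFI1 libraries. These 3 subunits were higher in every GFI1 library. ITGA6, part of the laminin receptors, was at 174, 173 and 181 CPM in the control libraries and 37, 42.3 and 46.3 CPM in the GFI1 libraries, and ITGA2 at 148, 145 and 141 CPM in the control libraries and 38.2, 60.2 and 32.6 CPM in the GFI1 libraries, so that both were lower in every GFI1 library. RASGRP2, an exchange factor for Rap1 that the study followed, was at 1.48, 0.482 and 1.13 CPM in the control libraries and 18.6, 19.1 and 17.1 CPM in the GFI1 libraries, and RAP1GAP, which switches Rap1 off, at 173, 156 and 157 CPM in the control libraries and 643, 614 and 604 CPM in the GFI1 libraries. An activator and an inactivator of Rap1 were thus both higher, but other regulators went both ways. RAP1GAP2, a relative of RAP1GAP, was lower, with a log2 fold change of -2.01. The exchange factors RAPGEF3 and RAPGEF4 had log2 fold changes of 1.63 and -0.95. Of 39 Rap1 and RAS regulators, 15 were higher and 15 lower.

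Of 16 CEACAM and immunoglobulin adhesion molecules, 11 were lower and 3 higher, beside 29.3% higher and 31.1% lower over all genes. CEACAM6, a surface glycoprotein of epithelia, was at 409, 452 and 397 CPM in the control libraries and 3.03, 3.31 and 4.68 CPM in the GFI1 libraries. CD44, the hyaluronan receptor, was at 1044, 1041 and 1003 CPM in the control libraries and 223, 217 and 223 CPM in the GFI1 libraries. L1CAM and CADM1, which mediate contact between cells, had log2 fold changes of -3.61 ± 0.12 and -3.15 ± 0.094. MCAM (CD146) was the member that rose most, at 6.4, 4.94 and 6.17 CPM in the control libraries and 23.4, 23.2 and 27 CPM in the GFI1 libraries. Among proteases of the pericellular space, MMP7 was at 43, 48 and 47.6 CPM in the control libraries and 228, 219 and 242 CPM in the GFI1 libraries, while ADAM9, a membrane-bound metalloprotease, was at 512, 539 and 553 CPM in the control libraries and 156, 155 and 173 CPM in the GFI1 libraries. PLAU, urokinase, was at 49.1, 53.1 and 45.7 CPM in the control libraries and 8.11, 8.77 and 9.05 CPM in the GFI1 libraries and was lower in every GFI1 library. Of 22 metalloproteinases, related proteases and inhibitors tested, 14 were higher and 7 lower, beside 29.3% higher and 31.1% lower over all genes.

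Matrix genes changed in both directions, beside 29.3% higher and 31.1% lower over all genes. Within 22 basement membrane genes, 8 were higher and 12 lower, and members of the same family went opposite ways. LAMB1 was at 549.8, 542 and 563 CPM in the control libraries and 112, 107 and 121 CPM in the GFI1 libraries, while LAMB2, the neighbouring laminin beta chain, was at 241, 222 and 224 CPM in the control libraries and 439, 432 and 438 CPM in the GFI1 libraries. COL4A1 fell by 2.08 log2 units and COL4A5 rose by 0.69. NID2, which links laminin to collagen IV, was at 5.28, 3.61 and 3.46 CPM in the control libraries and 63.5, 61 and 56.8 CPM in the GFI1 libraries. Of 28 interstitial matrix genes, 11 were higher and 9 lower. FN1, fibronectin, was at 4245, 4004 and 3889 CPM in the control libraries and 1105, 1157 and 1111 CPM in the GFI1 libraries. VCAN, a large proteoglycan, was 31.4-fold lower and COL5A2 18.3-fold lower, with GFI1 libraries between 14.1 and 17.4 CPM for both genes. Of 41 focal adhesion genes, 15 were higher and 17 lower. BCAR1, the p130Cas scaffold, was at 90.1, 83.5 and 83.8 CPM in the control libraries and 401, 415 and 372 CPM in the GFI1 libraries, and its relative NEDD9 at 112, 108 and 103 CPM in the control libraries and 21.9, 23.3 and 21 CPM in the GFI1 libraries, with log2 fold changes of 2.21 and -2.29. PTK2B, the kinase related to FAK, fell by 1.65 log2 units, and VCL, vinculin, was at 249, 258 and 244 CPM in the control libraries and 228, 230.2 and 245 CPM in the GFI1 libraries and not past the threshold.

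Genes of plasma proteins, which are normally made by liver, included several deep falls. Of 17 plasma protein genes tested, 10 were lower and 3 higher, beside 29.3% higher and 31.1% lower over all genes. The 3 fibrinogen chains FGA, FGB and FGG were at 61.5, 61.2 and 54.2 CPM, 40.1, 40.6 and 33.9 CPM and 51.3, 51.3 and 45.3 CPM in control libraries, and none exceeded 1.09 CPM in a GFI1 library. RBP4, the retinol carrier, went the other way, at 7.11, 8.91 and 7.99 CPM in the control libraries and 31.5, 28.3 and 32.5 CPM in the GFI1 libraries. C3, the central complement component, fell from 709, 662 and 611 CPM to 81.5, 74 and 87 CPM. Of 22 mucin and galectin genes, 10 were higher and 6 lower, and with at least 10 counts required in every library 10 were called in either direction. MUC5AC and MUC5B, the gel-forming mucins of airways, were at 1628, 1441 and 1435 CPM in the control libraries and 821, 823 and 1009 CPM in the GFI1 libraries and at 2431, 2181 and 2187 CPM in the control libraries and 1435, 1371 and 1539 CPM in the GFI1 libraries. Both were lower in every GFI1 library, by less than 2-fold. MUC19, another gel-forming mucin, rose from 0.237, 0.361 and 0.453 CPM to 21.6, 17.9 and 17.5 CPM. The galectin LGALS3 rose from 69.9, 73 and 68.7 CPM to 438, 586 and 317 CPM, and LGALS9C, a galectin whose reads may be split with its close copies, from 0.474, 0.783 and 0.85 CPM to 35.2, 32.2 and 34.1 CPM.

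In the apoptosis machinery, BMF and BCL2L11, BH3-only genes with a part in anoikis, were higher with GFI1. BMF was at 4.8, 3.67 and 4.7 CPM in the control libraries and 19.2, 19 and 18.2 CPM in the GFI1 libraries and BCL2L11 at 23.5, 22.6 and 19.7 CPM in the control libraries and 54.4, 49.6 and 53 CPM in the GFI1 libraries. For each gene the lowest GFI1 library was more than 2-fold above the highest control library, and the log2 fold changes were 2.09 ± 0.12 for BMF and 1.25 ± 0.074 for BCL2L11, with adjusted p values of 8.04e-14 and 1.06e-13 by edgeR's quasi-likelihood test. MCL1, a prosurvival member, was higher as well, at 355, 346 and 352 CPM in the control libraries and 647, 874 and 498 CPM in the GFI1 libraries. Other members were lower. BCL2 was at 3.2, 3.31 and 3.85 CPM in the control libraries and 2.15, 1.6 and 1.69 CPM in the GFI1 libraries, BCL2L1 (BCL-XL) at 130.1, 125 and 122 CPM in the control libraries and 81.8, 105 and 81.9 CPM in the GFI1 libraries, BID at 45.8, 44.7 and 40.3 CPM in the control libraries and 23.4, 23.4 and 20.6 CPM in the GFI1 libraries and BAX at 151, 146 and 164 CPM in the control libraries and 115, 109 and 114 CPM in the GFI1 libraries, the last chosen after its value was seen. The BH3-only genes PMAIP1 and BAD were lower too, with log2 fold changes of -0.49 and -0.25. BBC3 (PUMA) had 44.9, 42.3 and 43.8 CPM in control and 44.8, 46.8 and 39 CPM in GFI1 libraries, which overlapped. In all, 5 of 16 BCL2 family genes were higher and 6 lower, beside 29.3% and 31.1% of all genes (5 and 6 without GFI1 replicate 3). Protein levels and cell death were not measured in these libraries.

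**Figure D2:**
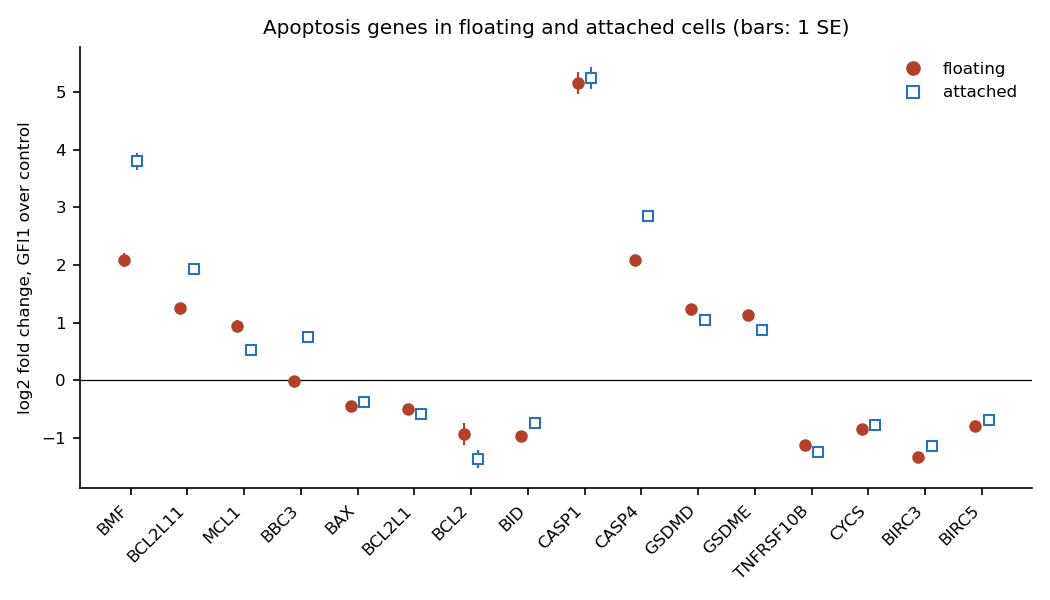
Log2 fold change of selected BCL2 family genes and of selected caspase, gasdermin, death receptor and inhibitor genes in floating cells (filled circles) and attached cells (open squares), with bars of 1 SE. The BCL2 family genes drawn are BMF, BCL2L11, MCL1, BBC3, BAX, BCL2L1, BCL2 and BID, and other tested members are not drawn. BMF, BCL2L11 and CASP4 lie above 0 in both states and lower in floating than in attached cells, and TNFRSF10B and BIRC3 lie below 0 in both.

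Within the list of caspases, death receptors and inhibitors, the inflammatory caspases CASP1 and CASP4 were higher. CASP4 was at 10.3, 12.9 and 9.86 CPM in the control libraries and 44.1, 46.4 and 50.2 CPM in the GFI1 libraries, and GSDMD, the pore-forming substrate of CASP1 and CASP4, at 17.2, 17.8 and 16.4 CPM in the control libraries and 41.8, 39.6 and 40.1 CPM in the GFI1 libraries. GSDME, a gasdermin cut by apoptotic caspases, rose by 1.13 log2 units. TNFRSF10B, the TRAIL receptor DR5, fell from 294, 286 and 284 CPM to 130.1, 139.7 and 126 CPM, CYCS, cytochrome c, from 278, 284 and 287 CPM to 163, 149 and 162 CPM, and the inhibitors BIRC3 and BIRC5 had log2 fold changes of -1.32 and -0.78. Other inhibitors went both ways, with log2 fold changes of 1.13 for CFLAR, 0.53 for BIRC2 and -0.16 for XIAP. Across 32 such genes, 14 were higher and 10 lower, beside 29.3% higher and 31.1% lower over all genes. Of 29 p53 targets, 12 were higher and 12 lower, with GADD45A at 27.1, 27.7 and 29.4 CPM in the control libraries and 79.6, 72 and 77.3 CPM in the GFI1 libraries and ZMAT3 at 30.9, 32.5 and 33.4 CPM in the control libraries and 11.9, 11.6 and 12.8 CPM in the GFI1 libraries.

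Growth factor receptors went in both directions. ERBB2 was 3.94-fold lower, at 73.6, 66.5 and 67.1 CPM in the control libraries and 18.7, 16.7 and 17.1 CPM in the GFI1 libraries, while EGFR was 1.39-fold higher, at 250, 253 and 231 CPM in the control libraries and 330.5, 393 and 299.9 CPM in the GFI1 libraries. NTRK3 fell from 319.6, 312 and 298 CPM to 35.1, 30.8 and 35.8 CPM, and RET, a receptor of neuroendocrine cells, rose from 6.05, 5.3 and 6.23 CPM to 30.1, 31.1 and 37.4 CPM. AXL, a receptor linked to survival, was at 134, 118 and 139.9 CPM in the control libraries and 302, 391 and 235 CPM in the GFI1 libraries, highest in GFI1 replicate 2. MYC, the growth-promoting transcription factor, was at 123, 113 and 112 CPM in the control libraries and 37.6, 41.1 and 37.2 CPM in the GFI1 libraries and fell 3-fold. The Hippo effectors YAP1 and WWTR1 (TAZ) had log2 fold changes of -2.75 ± 0.05 and -2.57 ± 0.052, YAP1 going from 123, 124 and 122 CPM to 18.4, 18.6 and 18 CPM. Of 30 genes in that list, which includes both effectors, 12 were higher and 13 lower, beside 29.3% and 31.1% of all genes.

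The study also examined ERK signaling, so genes of that pathway were listed. Of 23 genes of the RAF, MEK and ERK kinases and their scaffolds, 12 were higher and 5 lower, and of 25 feedback and output genes, 12 were higher and 8 lower, beside 29.3% higher and 31.1% lower over all genes. KSR1, a scaffold of the cascade, was at 39.4, 34.8 and 37.3 CPM in the control libraries and 103, 102 and 108 CPM in the GFI1 libraries. SPRY4, a feedback inhibitor that ERK induces, was at 39.5, 37.8 and 35.1 CPM in the control libraries and 10.3, 9.81 and 9.2 CPM in the GFI1 libraries, and ETV4, an ETS factor downstream of ERK, at 103, 99.5 and 98.9 CPM in the control libraries and 44, 48 and 43.9 CPM in the GFI1 libraries. DUSP1, a phosphatase of MAP kinases, rose to 153, 159.5 and 158 CPM from 79.2, 73.6 and 64.6 CPM. Members of the same feedback families went opposite ways. SPRY2, DUSP6 and SPRED2 rose by 1.05, 0.97 and 0.69 log2 units, and SPRY1 and SPRED1 had log2 fold changes of -1.52 and -0.73. Phosphorylation was not measured in these libraries.

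Guidance and WNT genes also went in both directions. Of 51 axon guidance genes, 27 were higher and 15 lower, beside 29.3% higher and 31.1% lower over all genes. NRP1, a receptor for semaphorins and VEGF, was at 564, 554 and 565 CPM in the control libraries and 63, 64.4 and 72.5 CPM in the GFI1 libraries, its ligand SEMA3C at 171, 183 and 164 CPM in the control libraries and 12, 12 and 15 CPM in the GFI1 libraries and the plexin PLXNA2 at 71.2, 71.4 and 69.7 CPM in the control libraries and 3.42, 3.36 and 4.72 CPM in the GFI1 libraries. All 3 fell in every library, whereas SEMA6B, a transmembrane semaphorin, was at 66, 65.1 and 65.2 CPM in the control libraries and 174, 178 and 196 CPM in the GFI1 libraries. Of 29 neuronal and neuroendocrine genes, 19 were higher and 7 lower, and MAP2, a microtubule protein of dendrites, was at 2.96, 3.19 and 4.19 CPM in the control libraries and 54.4, 49.7 and 60.7 CPM in the GFI1 libraries. SFRP1, a secreted WNT antagonist, was at 34.6, 35.3 and 33.4 CPM in the control libraries and 289.7, 333 and 273 CPM in the GFI1 libraries, WNT4 at 3.44, 3.85 and 3.57 CPM in the control libraries and 23.4, 19.5 and 24 CPM in the GFI1 libraries, and AXIN2, a feedback target of WNT signals, at 44.2, 42.9 and 46.1 CPM in the control libraries and 12.3, 11.9 and 15.6 CPM in the GFI1 libraries. Of 45 Notch and WNT genes in all, 14 were higher and 18 lower, so that the share higher was near that over all genes.

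Autophagy and lysosome genes were higher more often than lower, with 22 of 46 higher and 9 lower (23 and 9 without GFI1 replicate 3), beside 29.3% higher and 31.1% lower over all genes. SQSTM1 (p62), the receptor that brings cargo to autophagosomes, was at 891, 908 and 857 CPM in the control libraries and 1447, 1444 and 1448 CPM in the GFI1 libraries, and CTSD, cathepsin D, at 378, 360.4 and 345 CPM in the control libraries and 612, 621 and 635 CPM in the GFI1 libraries. CTSS, a cathepsin of antigen-presenting cells, fell instead, at 28.4, 26.4 and 27.8 CPM in the control libraries and 2.7, 2.26 and 2.69 CPM in the GFI1 libraries, as did MITF, a factor that drives lysosome genes, at 12.7, 11.8 and 11.9 CPM in the control libraries and 2.43, 3.53 and 2.64 CPM in the GFI1 libraries.

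Of the 64 lists, the interferon effectors had the highest median. Type I interferon signals through JAK kinases to STAT factors and IRF9, which bind response elements in the promoters of antiviral genes. Of 47 effector genes tested, 45 were higher with GFI1 and 1 lower, beside 29.3% higher over all genes, and the median log2 fold change was 2.32 (without GFI1 replicate 3, 45 higher and a median of 2.24). MX1, a GTPase that blocks viruses, was at 1.42, 1.62 and 2.72 CPM in the control libraries and 35.9, 30.8 and 48.8 CPM in the GFI1 libraries. OAS2, which makes 2'-5' oligoadenylates, was at 1.13, 0.602 and 0.623 CPM in the control libraries and 14.9, 11.4 and 20.7 CPM in the GFI1 libraries. UBA7, the enzyme that starts conjugation of ISG15, was at 1.54, 1.2 and 0.793 CPM in the control libraries and 45.2, 40 and 46.1 CPM in the GFI1 libraries. For these 3 genes GFI1 replicate 2 was the lowest and replicate 3 the highest GFI1 library. XAF1, chosen after its value was seen, had at most 1 count in a control library and was at least 49-fold higher. LY6E fell by 0.26 log2 units, and OAS1 had 59.4, 54.4 and 56.4 CPM in control and 56.7, 43.8 and 69.4 CPM in GFI1 libraries.

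Ligands, receptors and factors of the pathway differed from the effectors. Of the interferon genes listed, IFNE could be tested and was not past the threshold, at 7.05, 6.32 and 6.74 CPM in the control libraries and 7.45, 5.62 and 4.97 CPM in the GFI1 libraries, and IFNB1, IFNL1 and IFNG had at most 2, 1 and 0 counts in a floating library. The receptor IFNGR1 was 4.31-fold lower, at 71.4, 68.8 and 71.1 CPM in the control libraries and 15.1, 16.8 and 17.1 CPM in the GFI1 libraries, and IFNAR1 was at 59.4, 57.9 and 57.8 CPM in control and 54.2, 56.6 and 55.5 CPM in GFI1 libraries. Of 21 JAK, STAT and IRF genes, 17 were higher and 3 lower, beside 29.3% higher and 31.1% lower over all genes. IRF1 was at 24.7, 22.3 and 22.2 CPM in the control libraries and 176, 174 and 164 CPM in the GFI1 libraries, IRF7 at 10.4, 6.98 and 8.61 CPM in the control libraries and 43.4, 38.5 and 48.4 CPM in the GFI1 libraries and IRF9 at 4.03, 3.13 and 4.87 CPM in the control libraries and 11.2, 11.4 and 11.7 CPM in the GFI1 libraries, each without overlap. The 3 lower members were STAT4, STAT5A and STAT6, the last at 202, 189 and 196 CPM in the control libraries and 77.6, 73.5 and 73.8 CPM in the GFI1 libraries. Among sensors of foreign nucleic acid, IFIH1 (MDA5) and DDX58 (RIG-I) had log2 fold changes of 3.09 and 2.01, CGAS fell by 0.90 log2 units, and its partner TMEM173 (STING) rose by 0.78. Of 21 genes of class I antigen presentation, 20 were higher and 0 lower, with HLA-B at 10.8, 8.37 and 8.16 CPM in the control libraries and 75.6, 80.9 and 80.1 CPM in the GFI1 libraries, PSMB9, an immunoproteasome subunit, at 4.33, 6.98 and 5.78 CPM in the control libraries and 37.6, 32.6 and 38.1 CPM in the GFI1 libraries, and the checkpoint ligand CD274 (PD-L1) at 0.533, 0.722 and 0.68 CPM in the control libraries and 6.62, 5.07 and 5.57 CPM in the GFI1 libraries. Neighbouring families did not all follow. The apolipoprotein L genes APOL1 and APOL3 were at 41, 35.2 and 37.4 CPM in the control libraries and 266, 272 and 258 CPM in the GFI1 libraries and at 0.356, 0.301 and 0.17 CPM in the control libraries and 14.3, 13.1 and 16.4 CPM in the GFI1 libraries, and among guanylate-binding proteins GBP3 was at 4.86, 5.3 and 4.36 CPM in the control libraries and 27.6, 28.4 and 27.4 CPM in the GFI1 libraries but GBP2 at 7.41, 7.1 and 7.54 CPM in the control libraries and 1.1, 1.05 and 1.79 CPM in the GFI1 libraries. TNFSF13B (BAFF), a cytokine for B cells, was at 0.652, 0.602 and 0.453 CPM in the control libraries and 20.8, 18.3 and 19.3 CPM in the GFI1 libraries. Neutrophil chemokines went the other way, as CXCL5 was at 1352, 1366 and 1321 CPM in the control libraries and 143, 140.5 and 168 CPM in the GFI1 libraries and CXCL8 and CXCL1 had log2 fold changes of -1.69 and -1.49.

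The response element was searched for in the promoters. Its core (GAAA and GAAA with any 2 bases between) was present, on either strand of the 250 bases before the start, in 23 of 38 effector promoters (60.5%) and in 8 of 17 promoters (47.1%) of class I antigen presentation genes, with promoters matched for 80.9% and 81% of these lists. It was in 282 of all 12057 promoters matched (2.34%), but these stand for 67.6% of the genes tested, under the 80% set for such a check, so a comparison of the lists with all genes is void here too. Shown are 4 effectors that hold it, with 25 bases on each side and the match in capitals, from GRCh38.p14, each read along its gene. Under the limits set for the GFI1 motif genes (level, overlap and chromosome), these effectors had the highest fold changes. They are BST2 on the minus strand (chr19:17405726-17405785), IFI6 on the minus strand (chr1:27672314-27672373), ISG15 on the plus strand (chr1:1013359-1013418) and DDX60L on the minus strand (chr4:168480538-168480597).
BST2: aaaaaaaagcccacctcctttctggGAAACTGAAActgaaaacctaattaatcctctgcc
IFI6: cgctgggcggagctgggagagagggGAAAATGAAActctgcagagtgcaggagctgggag
ISG15: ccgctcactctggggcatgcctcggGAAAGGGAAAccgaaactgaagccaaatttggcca
DDX60L: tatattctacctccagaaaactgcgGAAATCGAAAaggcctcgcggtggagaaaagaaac
BST2, which tethers budding viruses, was at 1.78, 1.02 and 2.27 CPM in the control libraries and 33.6, 28.5 and 36.9 CPM in the GFI1 libraries, and IFI6, a small mitochondrial protein, at 14.1, 10.9 and 10.8 CPM in the control libraries and 154, 139.8 and 190.1 CPM in the GFI1 libraries. ISG15, a ubiquitin-like modifier, was at 8.18, 6.38 and 5.72 CPM in the control libraries and 64.8, 57.9 and 81.8 CPM in the GFI1 libraries, and DDX60L, a helicase, at 27.6, 27 and 29.1 CPM in the control libraries and 280.2, 258 and 272 CPM in the GFI1 libraries. All 4 were higher in each GFI1 library than in any control library.

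**Figure D3:**
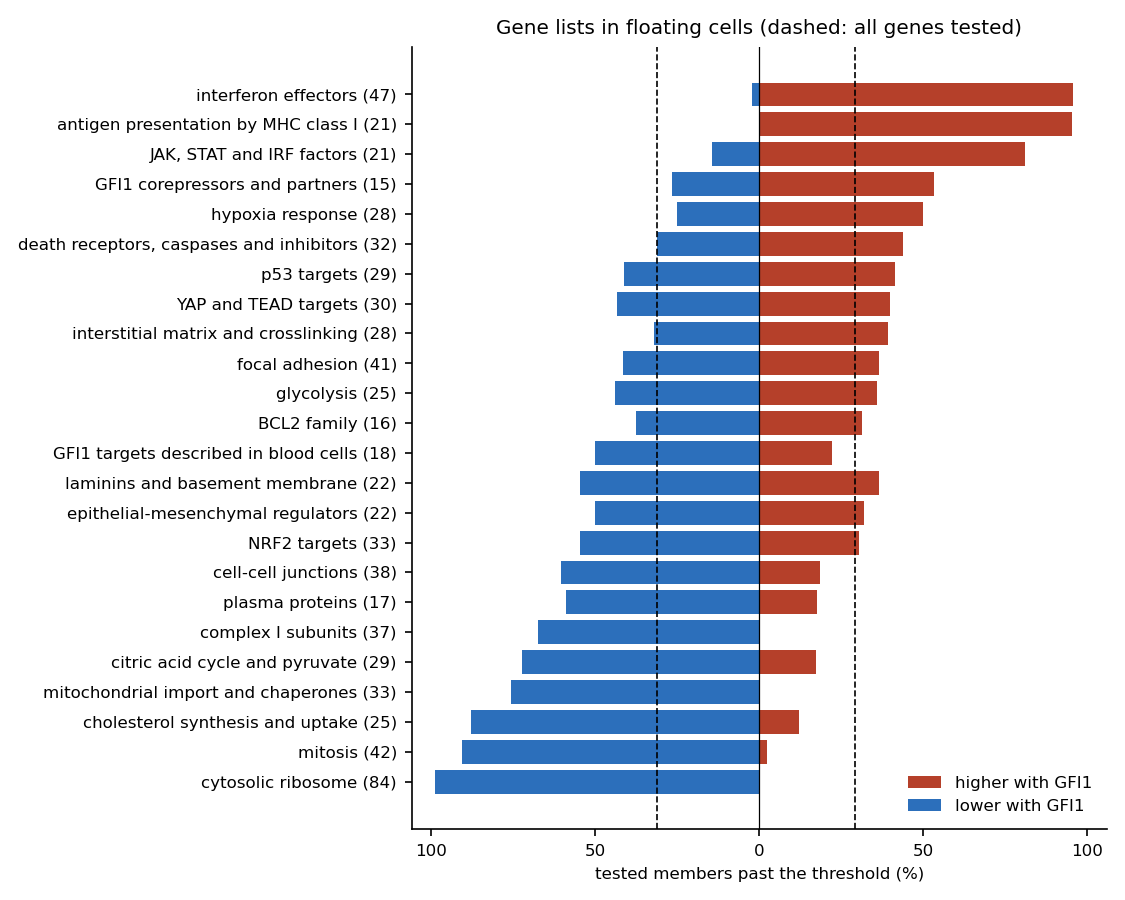
Share of tested members that were higher (right) or lower (left) with GFI1 in suspension, past the threshold, for 24 gene lists, with the number tested in brackets and dashed lines at the shares over all genes tested. Interferon effectors and class I antigen presentation extend far to the right, and the cytosolic ribosome, cholesterol synthesis and mitochondrial lists far to the left.

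Genes of the mitochondrial respiratory chain were mostly lower, by small amounts. The respiratory chain passes electrons through complexes I to IV and ATP synthase uses the resulting gradient, and its subunits come from nuclear genes and 13 mitochondrial ones. Of 37 complex I subunits 25 were lower and 0 higher, of 4 complex II subunits 4 were lower, of 9 complex III subunits 8, of 14 complex IV subunits 11 (and 1 higher), and of 19 ATP synthase subunits 17 (and 1 higher). The median log2 fold changes lay between -0.43 for complex III and -0.25 for complex I, beside 31.1% of all genes lower and a median of 0.011 over all genes. Without GFI1 replicate 3, 25 complex I and 8 complex III subunits were lower, and with libraries scaled by size only 2 of the 4 complex II subunits were past the threshold and the median of complex I was -0.12. ATP5F1B, the catalytic beta subunit of ATP synthase, was at 1129, 1130 and 1102 CPM in the control libraries and 698, 734 and 748 CPM in the GFI1 libraries. SDHB, the iron-sulfur subunit of complex II, was at 63.1, 66.3 and 62.5 CPM in the control libraries and 41.4, 40.7 and 42.2 CPM in the GFI1 libraries, and CYC1, cytochrome c1 of complex III, at 257, 245 and 255 CPM in the control libraries and 156, 156 and 168 CPM in the GFI1 libraries. For these 3 genes the groups did not overlap. ATP5IF1, an inhibitor of ATP synthase counted in its list, was the member that rose, at 53.2, 47.2 and 47.9 CPM in the control libraries and 65.8, 58.4 and 72.6 CPM in the GFI1 libraries. Of 13 mRNAs encoded in the mitochondrial genome, 7 were lower and 0 higher, with MT-CO3, a subunit of complex IV, at 7518, 7962 and 7107 CPM in the control libraries and 5188, 5290 and 5408 CPM in the GFI1 libraries. The mitochondrial ribosome had 37 of 49 large subunit and 21 of 30 small subunit genes lower, and MRPS6 was higher at 15.8, 14.2 and 14.2 CPM in the control libraries and 39.8, 46.5 and 31.2 CPM in the GFI1 libraries.

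Of 20 genes for the upkeep of the mitochondrial genome and for biogenesis, 11 were lower and 1 higher, and of 22 genes of fission, fusion and mitophagy 12 were lower and 3 higher, beside 29.3% higher and 31.1% lower over all genes. PPARGC1A (PGC-1 alpha), a coactivator of mitochondrial biogenesis, fell 8.34-fold, from 18.3, 19.3 and 15.8 CPM to 1.93, 2.1 and 2.34 CPM, while its relative PPARGC1B was 1.23-fold higher. TFAM, which packs the mitochondrial genome, was at 99.9, 104 and 101 CPM in the control libraries and 64.8, 68 and 64.6 CPM in the GFI1 libraries, and the chaperone HSPD1 (HSP60) at 672, 712 and 687 CPM in the control libraries and 344, 355 and 366 CPM in the GFI1 libraries. Of 33 import and chaperone genes, 25 were lower and 0 higher. MFF, which recruits the fission GTPase to mitochondria, rose instead, at 86.4, 88.4 and 87.4 CPM in the control libraries and 196, 199.9 and 202 CPM in the GFI1 libraries. In the citric acid cycle and pyruvate list, 21 of 29 genes were lower, among them FH, fumarate hydratase, at 99.4, 113 and 98.2 CPM in the control libraries and 47.6, 50.4 and 57.4 CPM in the GFI1 libraries, and PDK4, which switches off pyruvate dehydrogenase, at 493, 518 and 498 CPM in the control libraries and 119, 101 and 124 CPM in the GFI1 libraries. IDH2 was higher, at 67.9, 67.8 and 65.5 CPM in the control libraries and 224, 269 and 185 CPM in the GFI1 libraries.

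**Figure D4:**
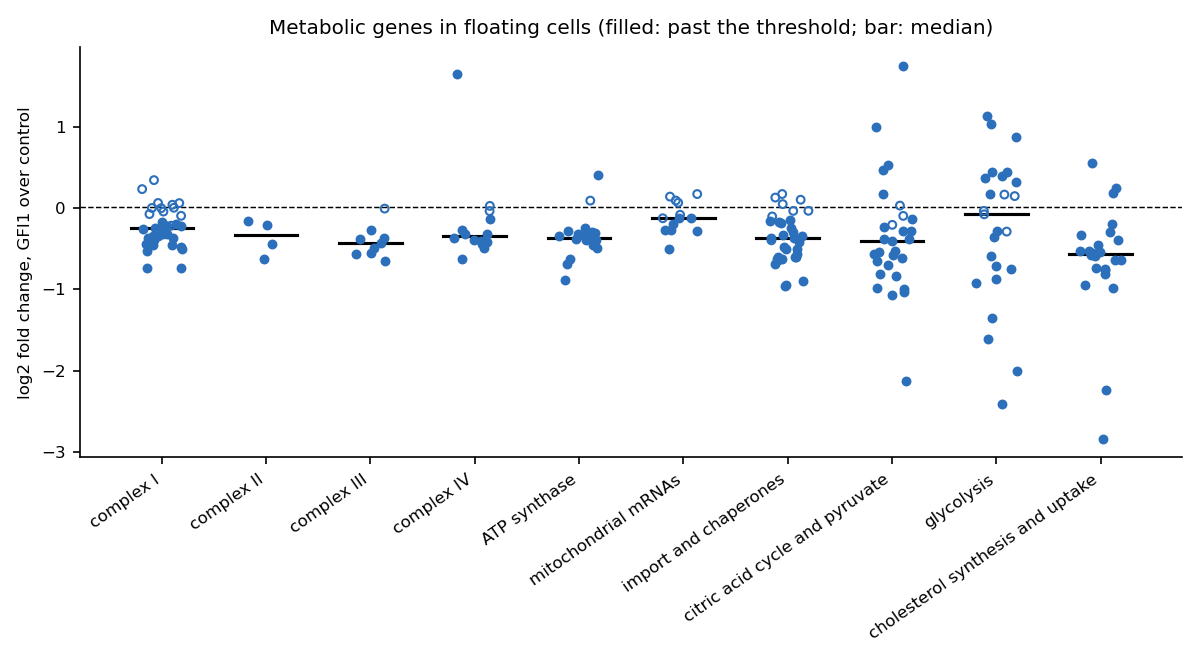
Log2 fold change of each tested gene in 10 metabolic and mitochondrial lists in floating cells, with filled points past the threshold, open points not past it and a bar at the list's median. Most points of the respiratory chain, ATP synthase and import lists lie between 0 and -1, below the dashed line at the median of all genes.

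Cholesterol genes were mostly lower. Of 25 genes of cholesterol synthesis and uptake, 22 were lower and 3 higher (median -0.57, and 22 lower without GFI1 replicate 3), beside 29.3% higher and 31.1% lower over all genes. HMGCS1, an early enzyme of the pathway, was at 116, 134 and 129 CPM in the control libraries and 62.4, 61 and 68.1 CPM in the GFI1 libraries. SREBF1, a regulator of lipid synthesis, was 1.19-fold higher. NRF2 is constantly active in A549 cells because they carry a mutant KEAP1, and of 33 NRF2 targets 18 were lower and 10 higher (18 and 9 without GFI1 replicate 3). AKR1B10, an aldo-keto reductase, fell from 3830, 3731 and 3811 CPM to 408, 396 and 470 CPM, HMOX1, heme oxygenase, from 68.1, 66 and 67 CPM to 21.2, 23.5 and 19.8 CPM, and PTGR1 from 519, 532 and 538 CPM to 38, 35.4 and 38.3 CPM. AKR1C1, a relative of AKR1B10 whose reads may be split with its close copies, rose to 1728, 1652 and 1785 CPM from 1157, 1115 and 1103 CPM. Of 27 genes of the ATF4 and unfolded protein response, 16 were lower and 6 higher, and of 21 carriers of amino acids and lactate 13 were lower and 5 higher. The serine synthesis enzymes PHGDH and PSAT1 had log2 fold changes of -2.07 and -1.95, and the cationic amino acid carrier SLC7A2 fell 27.2-fold, from 233, 234 and 242 CPM to 8.22, 8.99 and 8.85 CPM.

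Most proliferation genes were lower, by modest amounts. Of 42 mitosis genes 38 were lower and 1 higher, with a median log2 fold change of -0.42 (39 lower and 0 higher without GFI1 replicate 3), beside 29.3% higher and 31.1% lower over all genes. SPC24, a kinetochore subunit, was the higher one, with a log2 fold change of 0.18 ± 0.077, and it was no longer past the threshold without GFI1 replicate 3 or by DESeq2. ECT2, which directs the cleavage furrow, was at 244, 246 and 238 CPM in the control libraries and 90.6, 88.1 and 100.2 CPM in the GFI1 libraries, and AURKB, the kinase of the chromosomal passenger complex, at 38.2, 40.1 and 38.1 CPM in the control libraries and 20.4, 17.4 and 21.1 CPM in the GFI1 libraries. Of 48 genes of replication licensing and the fork, 40 were lower and 0 higher, with MCM3, a subunit of the replicative helicase, at 98.9, 97.4 and 93.6 CPM in the control libraries and 47.1, 47.1 and 56.9 CPM in the GFI1 libraries. Of 84 cytosolic ribosomal protein genes, 83 were lower, with RPS16 at 1903, 1861 and 1866 CPM in the control libraries and 1002, 1026 and 941 CPM in the GFI1 libraries. RPL39L, a ribosomal protein gene whose reads may be split with its close copies, fell from 16.4, 13.2 and 17 CPM to 2.87, 2.21 and 3.73 CPM. Of 36 ribosome biogenesis genes, 34 were lower, with FBL, fibrillarin, at 469, 464 and 479 CPM in the control libraries and 241, 257 and 246 CPM in the GFI1 libraries. Of 20 aminoacyl-tRNA synthetases, 17 were lower and 0 higher. Among brakes of the cell cycle, CDKN1C (p57) rose 7.65-fold, from 3.56, 2.95 and 3.57 CPM to 23.9, 33 and 20.5 CPM, while CDKN1B (p27) fell by 0.69 log2 units. CCND1, cyclin D1, rose from 277, 275 and 275 CPM to 418, 412 and 404 CPM, and CCND3 fell from 229, 223 and 219.8 CPM to 105, 95.1 and 109 CPM. Counts are relative to the total in each library, so a general change in RNA per cell would not be seen.

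The floating GFI1 libraries differed from each other more than the floating control libraries did. The chi-square per gene was 11.4 between GFI1 replicates 2 and 3, 4.70 between 1 and 3 and 4.84 between 1 and 2, against 2.11 to 2.48 among the control libraries. On the second principal component of the 6 libraries, which carried 4.69% of the variance, GFI1 replicate 2 scored 24.5, replicate 1 -0.50 and replicate 3 -24.9, while the first, with 83.1%, separated GFI1 from control. At 2 CPM or more, 29 genes in replicate 3 were more than 2-fold below both other GFI1 libraries, and no other library of the series had more than 6 such genes.

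Many genes of the response to low oxygen followed this order. Of 28 hypoxia response genes, 26 were highest in GFI1 replicate 2 and lowest in replicate 3, beside 3463 of the 17829 genes tested (19.4%), and 5 of the 28 followed the same order of replicate numbers in the control libraries. LOX, a collagen-crosslinking enzyme induced by low oxygen, was at 45.6, 46 and 47.5 CPM in the control libraries and 26.6, 55 and 9.6 CPM in the GFI1 libraries. VEGFA, the angiogenic growth factor, was at 136, 134 and 114 CPM in the control libraries and 559.9, 752 and 419 CPM in the GFI1 libraries. HILPDA, a regulator of lipid droplets, was at 95.8, 88 and 94.7 CPM in the control libraries and 39.4, 75.5 and 24.7 CPM in the GFI1 libraries. VEGFA was above control in all GFI1 libraries, HILPDA below in all 3, and LOX on both sides of control. LOX was not past the threshold with all libraries and was past it without GFI1 replicate 2, with a log2 fold change of -1.37. Of 25 glycolysis genes, 19 had the same order, among them SLC2A1, the glucose carrier GLUT1, at 312, 297 and 297 CPM in the control libraries and 626, 809.5 and 545 CPM in the GFI1 libraries, and HK2, a hexokinase, at 29.8, 28.6 and 30.6 CPM in the control libraries and 7.94, 16.5 and 4.97 CPM in the GFI1 libraries. The interferon effectors had the reverse order, with 39 of 47 highest in replicate 3 and lowest in replicate 2, as did 29 of 42 mitosis genes, beside 3644 of all genes (20.4%). Oxygen, cell number and clump size were not recorded in the labels, and their part in this spread was not tested.

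**Figure D5:**
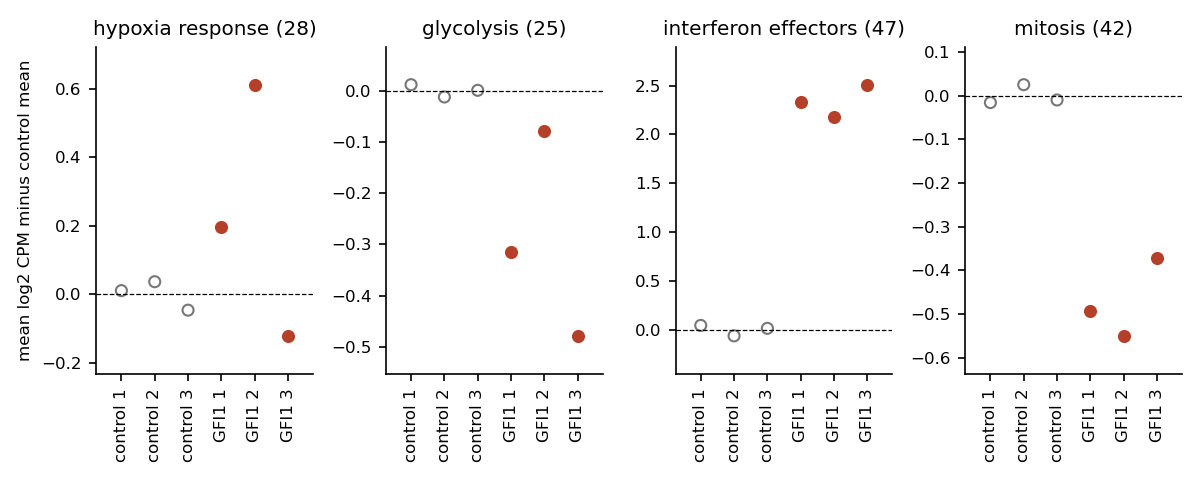
Mean log2 CPM of 4 gene lists in each floating library, given as the difference from the mean of the 3 control libraries, with control libraries as open and GFI1 libraries as filled symbols. Hypoxia response and glycolysis are highest in GFI1 replicate 2 and lowest in replicate 3, and interferon effectors and mitosis show the reverse order.

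HIF1A, the oxygen-regulated transcription factor, was lower in GFI1 cells at 488, 512 and 474 CPM in the control libraries and 255, 255 and 274 CPM in the GFI1 libraries, and its relative EPAS1 (HIF-2 alpha) was higher at 317, 316 and 291 CPM in the control libraries and 952, 1142 and 885 CPM in the GFI1 libraries. The log2 fold changes were -0.91 ± 0.043 and 1.69 ± 0.065, and neither gene's groups overlapped. Of all 28 hypoxia response genes, which include both factors, 14 were higher and 7 lower with GFI1, beside 29.3% and 31.1% of all genes. Without replicate 3, 17 were higher and 5 lower. Glycolysis genes split into 9 higher and 11 lower, with PFKP, a phosphofructokinase, at 399, 400 and 394 CPM in the control libraries and 797, 926 and 714 CPM in the GFI1 libraries and its relative PFKM at 88, 87.3 and 93.7 CPM in the control libraries and 16.7, 18.1 and 15.8 CPM in the GFI1 libraries, and with ENO1, enolase, at 3246, 3258 and 3186 CPM in the control libraries and 1236, 1285 and 1267 CPM in the GFI1 libraries. SLC6A8, the creatine carrier, was at 57.7, 57.1 and 53.4 CPM in the control libraries and 170.5, 313 and 74.1 CPM in the GFI1 libraries, with GFI1 replicate 3 nearest to the control libraries.

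Without GFI1 replicate 3, most genes kept their call. The test then gave 10605 genes past the threshold, 5170 higher and 5435 lower, and 10078 of the 10770 (93.6%) were past it in both fits, 0 of them with the opposite sign. Of the 10770, 692 were no longer past it, and 399 genes were newly past it. The count of calls with a 2-fold change was 3254. Replicate 3 also stood apart for genes with close copies. SMN1, which shares nearly all of its sequence with SMN2, was at 24.1, 8.55 and 9.69 CPM in the control libraries and 11.3, 10 and 30.9 CPM in the GFI1 libraries, and EIF3C, which has the copy EIF3CL, at 54.7, 29 and 19.9 CPM in the control libraries and 15.4, 14.8 and 31.7 CPM in the GFI1 libraries, so reads may be split between copies differently in single libraries. Neither gene was past the threshold with all libraries, and without GFI1 replicate 3 EIF3C was, with a log2 fold change of -1.19.

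To find what was particular to the floating state, the GFI1 effect in floating cells was compared with that in attached cells by the difference of the 2 log2 fold changes. It was past the threshold for 1919 genes (10.8%), 848 above 0 (4.76%) and 1071 below (6.01%), and for 2090 without floating GFI1 replicate 3. For 694 genes the effect had the same sign and was larger in floating cells, for 779 it was smaller, and for 446 the signs were opposite, with the effect past the threshold in both states for 105 of these. For log2 values the number after ± is the SE, and for the mean CPM of attached libraries it is the standard deviation of the 3 libraries. Large differences above 0 included NPTX1, which changed in attached cells by 3.08 ± 0.26 on the log2 scale (22.2 ± 0.788 CPM in attached control and 188 ± 1.65 CPM in attached GFI1 libraries), and CPA4 (difference 2.17 ± 0.27). SLCO4A1, an organic anion carrier, was at 30.5, 30.8 and 28.9 CPM in the control libraries and 46.9, 71.8 and 27.4 CPM in the GFI1 libraries in floating cells, and at 19.2 ± 0.497 CPM in attached control and 8.94 ± 1.26 CPM in attached GFI1 libraries, with log2 fold changes of 0.69 and -1.10 ± 0.23 (difference 1.79 ± 0.29, edgeR's quasi-likelihood test, adjusted p 0.000137). In floating cells its lowest GFI1 library lay below all control libraries, and the floating change was not past the threshold with robust empirical Bayes estimation.

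Other genes had a lower log2 fold change in floating than in attached cells. TXNIP, a thioredoxin inhibitor that responds to glucose, was at 7.47, 6.32 and 9.12 CPM in the control libraries and 7.28, 6.12 and 8.31 CPM in the GFI1 libraries in floating cells, where the groups overlapped, and at 1.57 ± 0.0996 CPM in attached control and 7.07 ± 0.55 CPM in attached GFI1 libraries (difference -2.23 ± 0.23, edgeR's quasi-likelihood test, adjusted p 2.57e-07). CA9, a carbonic anhydrase induced by low oxygen, was at 12.9, 15.4 and 14.4 CPM in the control libraries and 20.5, 28.9 and 11.2 CPM in the GFI1 libraries in floating cells, and at 0.361 ± 0.0862 CPM in attached control and 3.1 ± 0.596 CPM in attached GFI1 libraries (difference -2.57 ± 0.55), and its floating change was not past the threshold when any of GFI1 replicates 1 and 2 or control replicates 1 and 3 was left out. TCN1, a vitamin B12 carrier, rose in both states, with log2 fold changes of 4.18 ± 0.092 in floating and 6.15 ± 0.12 in attached cells. BMF rose less in floating cells than in attached ones (2.09 ± 0.12 against 3.80 ± 0.14), and so did BCL2L11 (1.25 ± 0.074 against 1.93 ± 0.075), and BBC3 differed by -0.77 ± 0.10. Of 33 NRF2 targets, 15 had a difference below 0 and 0 above 0, beside 6.01% and 4.76% of all genes (20 and 0 without GFI1 replicate 3). ALDH3A1, an aldehyde dehydrogenase, was at 5089, 5043 and 4920 CPM in the control libraries and 5366, 5016 and 5568 CPM in the GFI1 libraries in floating cells, and at 2583 ± 31.9 CPM in attached control and 4955 ± 123 CPM in attached GFI1 libraries. MUC5AC had a log2 fold change of -0.76 ± 0.081 in floating and 0.50 ± 0.082 in attached cells, with 597 ± 92.7 CPM in attached control and 846 ± 31.1 CPM in attached GFI1 libraries.

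Differences were also found among adhesion, neuronal and guidance genes. ITGA10 and RAP1GAP rose in both states, and less in floating cells. The log2 fold changes were 3.13 ± 0.056 against 4.29 ± 0.069 for ITGA10 and 1.94 ± 0.046 against 2.89 ± 0.049 for RAP1GAP. MAP2 rose by more in floating cells, with 3.99 ± 0.10 against 3.04 ± 0.095 (difference 0.95 ± 0.16). NRP1 fell further in floating cells, with -3.07 ± 0.049 against -2.37 ± 0.047 (difference -0.70 ± 0.066). CD44, CEACAM6, CDH1 and RASGRP2 had differences of 0.076 ± 0.058, -0.42 ± 0.20, -0.20 ± 0.12 and -0.23 ± 0.32, none of them past the threshold, so that for these 4 genes no difference between the states was detected at this spread. Without floating GFI1 replicate 3, that of CEACAM6 was past it, at -0.64. Of the 47 interferon effectors, 15 had a difference below 0 and 0 above 0, beside 6.01% and 4.76% of all genes (21 and 0 without GFI1 replicate 3). Of 37 complex I subunits the counts were 1 and 1, and of 42 mitosis genes 3 and 0.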

How the data were processed

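Poly-A RNA of 4 groups of 3 libraries was sequenced, and the deposited values are raw counts of fragments per gene. The authors' methods name FastQC, Hisat2 on GRCh38 and featureCounts, whereas the submitters' processing notes list Bowtie2 and HTSeq with hg38, so the tool behind the counts is uncertain. The annotation release and strand setting are not given in the sources used here. Reads of close gene copies may have been split or dropped. The table held 58735 genes, 27 of them with symbols turned into dates, which were named by identifier. It also holds the authors' gene lengths, which were not used for tests. No source says whether replicates were separate cultures, so p-values measure the spread between these libraries.

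Groups were taken from the labels. The counts were analysed with edgeR 4.0.16 in R 4.3.3. Genes were kept by filterByExpr (minimum count 10, minimum total 15), which left 17829. Libraries were scaled by TMM, and all 12 entered 1 quasi-likelihood fit with a mean for each of the 4 groups. The contrasts were floating GFI1 minus floating control, and that effect minus the attached one. Tests were two-sided, with Benjamini-Hochberg adjustment over all genes tested and a threshold of 0.05. Fold changes against a group at or under 3 counts in each library were computed against that floor. Floors cover counting error only, and the SE of a fold change comes from the fit and so includes the spread between libraries.

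The text names GFI1, genes the study named, the largest rises and falls where the mean log2 CPM was 1 or more and the groups did not overlap (over all genes, among transcription factors and within each list), the most abundant list member that did not pass, and the largest differences between states. Genes with promoter sequences printed were taken by motif and log2 fold change, under the same limits on level and overlap. Chromosome 8 was left out of that choice, so the printed genes need not be the extremes over all chromosomes. A few genes that the rule names are not reported here. EPCAM, BAX and other genes outside this rule were chosen after their values were seen. The members and the 64 gene lists were chosen with earlier results of these data known, and no set test was run. Promoters from RefSeq (GRCh38.p14) matched 12057 of the tested genes (67.6%). The alternatives were DESeq2 1.42.0, RLE, upper quartile and library size scaling, robust empirical Bayes, a replicate block, a 1.5-fold threshold, no filter on counts, a minimum of 10 counts per library, a fit of the floating libraries alone, list members whose mean log2 CPM reached 1, and each library left out in turn. The edgeR test was first run on simulated counts.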

Additional observations from a re-analysis of the deposited data

Results flagged for a closer look

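The genes given here had a difference between the GFI1 effect in floating and in attached cells past the threshold by edgeR's quasi-likelihood test. This was so for 86 of 220 named genes checked in this way, with 28 differences above 0 and 58 below. Over all genes tested the share was 10.8%, and some of the named genes were chosen for this difference. Values are log2 fold changes in floating cells minus those in attached cells. Groups of 3 libraries are too small for the test of a single outlying library, so no library was picked out in that way.

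For 8 genes the effect had opposite signs in the 2 states, and for 3 of them it was past the threshold in both. The differences were 1.79 for SLCO4A1, 1.60 for SMN1, 0.41 for SREBF1, 0.21 for TJP1, -2.23 for TXNIP, -1.26 for MUC5AC, -0.77 for BBC3 and -0.31 for LY6E.

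For 47 genes the sign was the same and the effect larger in floating cells. Where the effect was above 0 in both states, the differences were 3.80 for NPTX1, 2.17 for CPA4, 1.32 for SLC6A8, 0.95 for MAP2, 0.95 for MRPS6, 0.84 for NID2, 0.66 for LGALS3, 0.54 for IDH2, 0.50 for BCAR1, 0.47 for AXL, 0.40 for PFKP, 0.36 for EGFR, 0.27 for SFRP1 and 0.25 for SEMA6B. Genes with an effect below 0 in both states are given by group, and for MUC5B the attached effect was near 0, at -0.014. Among transcription and cell cycle regulators the differences were -1.20 for ID2, -0.997 for TP63, -0.72 for ID3, -0.63 for FOXQ1, -0.53 for ETV4, -0.40 for MYC, -0.34 for WWTR1 and -0.53 for CDKN1B. Among matrix, adhesion and guidance genes the differences were -0.94 for COL5A2, -0.87 for VCAN, -0.70 for NRP1, -0.65 for FN1, -0.63 for PLAU, -0.55 for ITGA2, -0.52 for SEMA3C and -0.45 for LAMB1. Among secreted and immune genes the differences were -0.79 for CXCL5, -0.63 for MUC5B, -0.60 for C3, -0.49 for CXCL1, -0.48 for IFNGR1 and -0.41 for CXCL8. Among metabolic and ribosomal genes the differences were -0.73 for PTGR1, -0.52 for HMOX1, -0.48 for SLC7A2, -0.48 for AKR1B10, -0.29 for PSAT1, -0.24 for FBL and -0.23 for RPS16. Among kinases, receptors and their inhibitor SPRY4 the differences were -0.70 for SPRY4, -0.52 for PTK2B, -0.47 for MAP2K6 and -0.26 for NTRK3.

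For 31 genes the sign was the same and the effect smaller in floating cells. Where the effect was below 0 in both states, the differences were 1.03 for HILPDA, 0.93 for VIM, 0.50 for CADM1, 0.45 for COL4A1, 0.44 for VCL, 0.41 for TGFB2, 0.38 for KRT8, 0.35 for CCND3, 0.35 for STAT6 and 0.30 for HIF1A. Where it was above 0 in both states, the differences among apoptosis and interferon-related genes were -1.70 for BMF, -0.86 for HLA-B, -0.76 for CASP4, -0.67 for BCL2L11, -0.65 for APOL1 and -0.61 for OAS1. Among adhesion, matrix and signaling genes they were -1.77 for RET, -1.16 for ITGA10, -1.10 for WNT4, -0.95 for RAP1GAP, -0.76 for ITGB2, -0.45 for JUP, -0.43 for LAMB2 and -0.20 for COL4A5. Among the other genes they were -2.57 for CA9, -1.97 for TCN1, -1.48 for NFE2, -0.86 for ALDH3A1, -0.47 for AKR1C1, -0.31 for CTSD and -0.27 for SQSTM1.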

How the results depend on the processing

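Of 4987 values of single genes under the alternatives, 4901 kept their direction and their side of the threshold, 24 changed sign, 25 came past the threshold and 37 were no longer past it, and 218 of 240 gene results kept both under each alternative that gave a value. A test against a 1.5-fold change left 3541 genes past the threshold in place of 10770. Requiring at least 10 counts in every library left 1783 genes with a 2-fold change in place of 3078, since 14323 genes were then tested and genes absent from a group dropped out. DESeq2 gave 10065 genes, and 1723 for the difference between states. When single libraries were left out, the count ran from 10085 to 10872, the count with a 2-fold change from 3070 to 3254 and the count for the difference from 1481 to 2090. The share of calls that were higher was 48.5%, and it was 61.4% with library size only and 53.3% with upper quartile scaling. A model with the replicate number as a term (replicate block) gave 10713 genes, 3063 with a 2-fold change and 1904 for the difference. No pairing of libraries by number was detected, as deviations of libraries with the same number correlated at -0.031 to 0.031, and the labels name no shared batch. A check over all genes tested cannot show a pairing that touched few of them. With the replicate block, LOX came past the threshold.

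The values that changed sign were near 0 with all libraries, apart from SMN1 and RASGRP2. OAS1 was at -0.0030 by DESeq2, -0.00012 with RLE size factors and -0.0052 with the replicate block, and between -0.17 and 0.16 without single libraries. BBC3 was at 0.013 with at least 10 counts in every library, 0.12 with library size only and 0.041 with upper quartile scaling, and between -0.055 and 0.070 without single libraries. CDKN1A was at 0.011, 0.12 and 0.039 under the same settings, past the threshold with library size only, and ran from -0.067 to 0.039. With library size only, IFNAR1 was at 0.055, TXNIP at 0.052 and VCL at 0.035, and TXNIP lay between -0.20 and 0.071 without single libraries. SMN1 ran from -0.40 without GFI1 replicate 3 to 0.95 without control replicate 1. Its difference between states was past the threshold with all libraries and not by DESeq2, with robust empirical Bayes or without that library. The difference of RASGRP2, not past the threshold, ran from -0.56 to 0.11 as single libraries were left out, the last without floating control replicate 1. CA9, EIF3CL and SPC24 were no longer past the threshold under several alternatives, DESeq2 and left-out libraries among them. The causes were not tested.

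At 17132435 to 19146265 counts per floating library, 3 counts or fewer in all libraries of a group cannot be told from absence, and 105 higher and 105 lower genes had such a group.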
